A study of Mus musculus with 6 samples.

Results

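The 6 genes described here, Cd69, Cd44, Cxcr6, Itga1, Itgae and Rgs1, are commonly read as marks of T cells that stay in a tissue, and were taken by symbol from the 32285 features of the deposited tables. Each symbol matched 1 feature, and all 6 were among the 20825 features analysed. They were followed through 6 single-cell RNA sequencing libraries of αβ T cells sorted from kidneys of wild-type male mice (C57BL/6J, 7 to 8 weeks old). The control group came from normal kidney and the IR group from kidney after ischemia of 30 min on both sides and reperfusion, and cells positive for CD45 and the αβ T cell receptor were sorted into CD4+, CD8+ and CD4-CD8- (double negative, DN) cells. Each of the 6 groups had 1 library, so no difference has a replicate check, no test was run, and every interval covers counting error only. Serum creatinine had been measured 24 h after ischemia to check the injury. The time of harvest for the sorted cells and the number of mice behind a library were not given in the sources used here.

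Tissue-resident memory T cells remain in an organ and do not return to the blood. CD69 binds the sphingosine 1-phosphate receptor S1PR1 and removes it from the cell surface, which blocks the exit signal, and CD69 is also an early activation antigen. CD44 is a hyaluronan receptor that stays high on antigen-experienced cells. CXCR6 is the receptor for CXCL16 and holds T cells in peripheral organs. Itga1 encodes CD49a, which pairs with integrin beta 1 (Itgb1) and binds collagen IV, and Itgae encodes CD103, which pairs with integrin beta 7 (Itgb7) and binds E-cadherin on epithelium. RGS1 shortens the signal of G protein-coupled chemokine receptors. In mice CD103 is also carried by naive CD8+ cells and by many regulatory T cells, so it does not mark residency alone.

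After filtering, 47916 of 54039 barcodes were analysed, between 4073 and 10104 per library. Control libraries were deeper, with a median of 6630.5 to 8363 unique molecular identifiers (UMIs) per cell against 1449 to 2354 in IR libraries, and pooled 45513391 to 60743680 retained UMIs against 4426339 to 15458360. Ribosomal protein genes took 16.6% to 22.7% of control UMIs and 27.1% to 42.0% of IR UMIs. Levels are given in CPM, the share of a gene in the retained UMIs of its library, where 3 UMIs correspond to 0.0494 to 0.678 CPM. A UMI of 1 of 6 T cell genes was found in 97.1% to 99.8% of cells, and the summed level of Cd4, Cd8a and Cd8b1 was 1.93 CPM in control DN and 2.94 CPM in IR DN. Between 58 and 82 analysed barcodes of a library shared their sequence with another library of the same condition, and leaving these out kept every call given below. File headers name Cell Ranger 5.0.1 in control and 6.0.1 in IR, whereas the methods of the study name only the later version, and by the headers condition and software version cannot be told apart.

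The 6 genes differ widely in structure. Intronic sequence, as bases covered by no annotated exon, amounts to 130270 bp in Itga1 (chr13:114953096-115101964, minus strand), 83749 bp in Cd44 (chr2:102811141-102901665, minus) and 52283 bp in Itgae (chr11:73090583-73147446, plus). It amounts to 3355 bp in Cxcr6 (chr9:123806475-123811760, plus) and 1603 bp in Cd69 (chr6:129267325-129275436, minus), and the annotated exons of Rgs1 (chr1:144242296-144249242, minus) leave 0 bp. Exons of all annotated transcripts of a gene were joined, so an intron covered by an exon of another transcript is not counted. The 0 bp therefore does not show that Rgs1 lacks introns. Coordinates are those of mm10. Cxcr6 lies inside Fyco1 on the opposite strand, Itga1 holds Pelo on its own strand and Gm10734 on the other, and Itgae holds Haspin on the other, so their counts are uncertain where counting did not use strand or dropped reads shared by overlapping genes.

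The RefSeq promoter table (GRCm38.p6, 250 bases before to 50 after the start) held 3 of the 6 genes, Cd44, Cxcr6 and Itga1. Those of Cxcr6 (chr9:123806227-123806526, plus) and Itga1 (chr13:115101915-115102214, minus) are shown because these 2 genes were at least 2-fold lower in IR in all 3 sorted subsets. Capitals mark matches, on either strand, to the RUNX core TGTGGT, the T-box core AGGTGT and the AP-1 site TGANTCA. Of 32851 promoters of this length, 16.8% held the first, 13.7% the second and 7.81% the third. Cxcr6 held 1 match, to the RUNX core on the reverse strand, which begins 10 bases before the start. Itga1 and Cd44 held 0.
Cxcr6: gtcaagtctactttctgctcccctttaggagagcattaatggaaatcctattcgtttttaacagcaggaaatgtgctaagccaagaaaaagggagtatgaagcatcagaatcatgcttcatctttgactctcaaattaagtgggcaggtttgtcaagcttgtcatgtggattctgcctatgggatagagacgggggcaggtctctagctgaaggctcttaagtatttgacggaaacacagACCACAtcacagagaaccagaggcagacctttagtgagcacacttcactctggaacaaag
Itga1: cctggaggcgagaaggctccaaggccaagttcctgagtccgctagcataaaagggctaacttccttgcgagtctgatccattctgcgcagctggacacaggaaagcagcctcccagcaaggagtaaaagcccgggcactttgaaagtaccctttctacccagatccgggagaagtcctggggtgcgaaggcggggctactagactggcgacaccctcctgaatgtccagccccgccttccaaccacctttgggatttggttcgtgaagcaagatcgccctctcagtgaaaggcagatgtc

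Cd69, the antagonist of S1PR1, was the steadiest of the 6. It stood at 434, 595 and 444 CPM in control (CD4, CD8, DN) against 464, 617 and 459 CPM in IR (CD4, CD8, DN). The highest library exceeded the lowest by 1.42-fold, and both CD8 libraries were the highest of their condition. The levels of IR CD4 and IR DN did not differ beyond counting error, nor did those of IR DN and control DN.

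Among the adhesion genes, Cd44 stood at 349, 171 and 322 CPM in control (CD4, CD8, DN) against 160.1, 67.9 and 223 CPM in IR (CD4, CD8, DN). CD8 was the lowest subset in both conditions, and each IR library lay below its control. Itga1 stood at 262, 283 and 396 CPM in control (CD4, CD8, DN) against 49.4, 40.3 and 136 CPM in IR (CD4, CD8, DN). It had the widest range of the 6 genes, 9.85-fold, with DN highest in each condition and every control library above every IR library. Itgae was sparse, at 5.96, 27.7 and 3.46 CPM in control (CD4, CD8, DN) against 4.33, 17.6 and 3.39 CPM in IR (CD4, CD8, DN), from 15 UMIs in IR DN to 1259 in control CD8. Both CD8 libraries were above the other 4, and the level of IR CD4 did not differ beyond counting error from control DN, nor control DN from IR DN.

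Cxcr6, the chemokine receptor, stood at 805, 702 and 1168 CPM in control (CD4, CD8, DN) against 282, 151 and 473 CPM in IR (CD4, CD8, DN). The order of the subsets was DN, CD4, CD8 in both conditions, and every control library was above every IR library. Rgs1, the regulator of G protein signalling, stood at 746, 643 and 757 CPM in control (CD4, CD8, DN) against 1031, 506 and 1605 CPM in IR (CD4, CD8, DN). IR DN was the highest library and IR CD8 the lowest, so the control levels lay between those of IR. Except for the pairs named above, neighbours in the order of the 6 libraries differed beyond counting error.

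**Figure D1:**
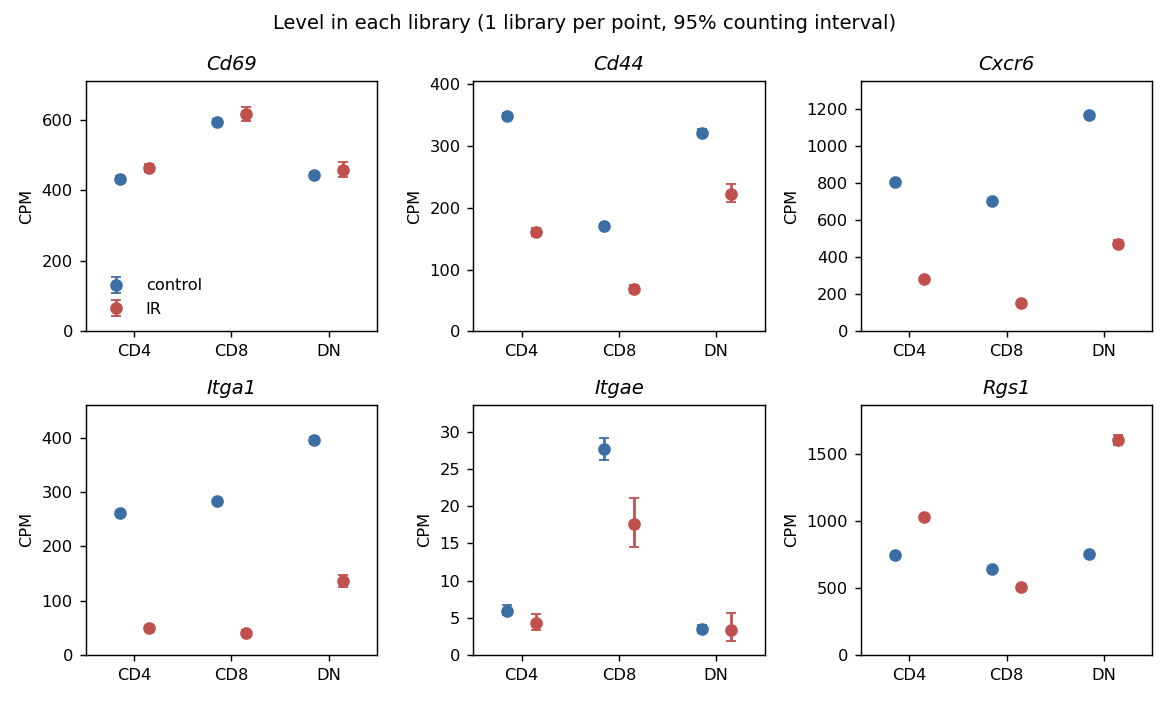
Level of each of the 6 genes in CPM (y axis, from 0) by sorted subset (x axis) in control (blue) and IR (red) libraries, with exact 95% Poisson intervals. Cxcr6 and Itga1 are lower in IR in each subset, Cd69 stays between 434 and 617 CPM, and Rgs1 is highest in IR DN at 1605 CPM.

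In normal kidney, the comparison of sorted subsets asked whether DN cells carry more of these transcripts than conventional T cells. A call required 10 CPM or more in the library with the higher level and a difference of 2-fold or more, and genes that reached 10 CPM in either library are those compared. Between DN and CD4 none of the 5 genes compared was called, where 2.74% of all genes were. Log2 ratios of DN over CD4 were 0.54 (95% interval 0.52 to 0.56) for Cxcr6 and 0.60 (0.57 to 0.63) for Itga1, larger than those of 95.4% and 96.3% of genes compared, and lay between -0.11 and 0.03 for Cd44, Rgs1 and Cd69. Between DN and CD8, 1 of 6 was called, against 6.60% of all genes. This was Itgae, with a log2 ratio of -3.00 (-3.22 to -2.79), while Cd44 at 0.92 (0.88 to 0.96) and Cxcr6 at 0.73 (0.72 to 0.75) were higher in DN but below 2-fold. Itga1 was at 0.49, Rgs1 at 0.23 and Cd69 at -0.42. The ratio of Cd44 passed 2-fold with the removed features kept (1.01) and with cells thinned to 500 UMIs (1.04), and its lowest value under an alternative was 0.74. The lowest values of Cxcr6 and Itga1 were 0.49 and 0.22. Rgs1 was at -0.01 without cells that had a Ccr7 UMI. Between CD8 and CD4, 2 of 6 were called, against 4.40% of all genes. Itgae was higher in CD8, with a log2 ratio of 2.21 (2.03 to 2.40), and Cd44 was lower, with -1.03 (-1.07 to -0.99), or -0.92 without cells that had a Ccr7 UMI. In that setting Itgae was at 1.30 for CD8 over CD4 and at -2.21 for DN over CD8.

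In ischemic kidney the 3 comparisons gave 9 calls, where those of normal kidney gave 3, and the share of all genes called was larger as well. In DN against CD4, 1 of 5 genes was called, against 7.62% of all genes: Itga1, with a log2 ratio of 1.47 (1.31 to 1.62), while Cxcr6 was at 0.75, Rgs1 at 0.64 and Cd44 at 0.48. In DN against CD8, 5 of 6 were called, against 11.7% of all genes. Log2 ratios of DN over CD8 were 1.72 (1.56 to 1.88) for Cd44, 1.65 (1.54 to 1.76) for Cxcr6, 1.76 (1.55 to 1.98) for Itga1 and 1.67 (1.61 to 1.73) for Rgs1. Without cells that had a Ccr7 UMI they were 1.30, 1.17, 1.15 and 1.22, each still past 2-fold. Itgae went the other way, at -2.38 (-3.26 to -1.59), and Cd69 was at -0.43 (-0.50 to -0.35), below 2-fold. In CD8 against CD4, 3 of 6 were called, against 7.58% of all genes: Itgae at 2.02 (1.57 to 2.48), Cd44 at -1.24 (-1.39 to -1.09) and Rgs1 at -1.03 (-1.08 to -0.97). The last was at -0.99 with TMM scaling and -0.80 without cells that had a Ccr7 UMI, and both calls of Itgae were lost with the removed features kept, where it was under 10 CPM.

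IR was compared with control within each subset, where calls were frequent among all genes, at 22.7% in CD4, 25.5% in CD8 and 19.4% in DN. The median log2 ratio of all genes compared was -0.26, -0.37 and -0.25 in CD4, CD8 and DN. Of the 6 genes, 3 of 5 compared were called in CD4, 3 of 6 in CD8 and 3 of 5 in DN. Cxcr6 was lower in IR in each subset, with log2 ratios of -1.51 (-1.56 to -1.47) in CD4, -2.22 (-2.32 to -2.13) in CD8 and -1.30 (-1.37 to -1.24) in DN. Itga1 had the lower ratio of the pair in each, with -2.41 (-2.52 to -2.30) in CD4, -2.81 (-3.00 to -2.64) in CD8 and -1.54 (-1.66 to -1.42) in DN. Of all genes compared, 3.62%, 0.689% and 4.22% had a lower ratio than Cxcr6 in CD4, CD8 and DN, and 0.442%, 0.153% and 1.78% a lower one than Itga1. Cd44 was called lower in CD4 at -1.12 (-1.19 to -1.06), or -0.98 without cells that had a Ccr7 UMI, and in CD8 at -1.33 (-1.47 to -1.19), and was at -0.53 (-0.62 to -0.44) in DN.

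Rgs1 did not move with the others. Its log2 ratio of IR over control was 0.47 (0.44 to 0.49) in CD4, -0.35 (-0.40 to -0.29) in CD8 and 1.08 (1.05 to 1.12) in DN, and it was called in DN. The call in DN was lost with TMM scaling (0.99), with the removed features kept (0.91) and after centring by intronic length (0.76). Summed levels of 10 immediate early genes, the first genes that follow stimulation or handling of cells, moved between the libraries as well. They were at 7300.3, 6418 and 7668 CPM in control (CD4, CD8, DN) against 17059.5, 12029 and 18490.5 CPM in IR (CD4, CD8, DN), and their part in the values of Rgs1 was not tested. Of the 10, 6 were called higher in CD4 and 5 each in CD8 and DN, and 0 lower. Junb held the largest share of the difference, with 2078, 1777 and 2019 CPM in control against 8678, 5789 and 8141 CPM in IR, while Fosb was at -0.63 and Jun at -0.22 in CD4 and at -0.29 and -0.60 in CD8 (log2 ratios of IR over control). Cd69 had log2 ratios between 0.05 and 0.10, and their sign turned under several scalings, to between -0.37 and -0.12 with the removed features kept.

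Ratios of IR over control were lower in bins of long intronic length than in bins of short, and the 6 genes were therefore also set against genes of like length, in 20 bins. The median log2 ratio of the bin of Itga1 was -0.94, -0.83 and -0.73 in CD4, CD8 and DN, and that of Cd44 was -0.73, -0.69 and -0.58. The bin of Cxcr6, a short gene, had medians of 0.32, 0.06 and 0.16. Centred on their bins, Cxcr6 was at -1.83, -2.28 and -1.46 on the log2 scale in the same order, and remained past 2-fold in each. Itga1 had -1.47, -1.98 and -0.81, past 2-fold in CD4 and CD8 but not in DN. Cd44 had -0.39, -0.64 and 0.05, past 2-fold in none. Rgs1, which its 0 bp placed in the bin of least intronic sequence, had 0.01, -0.53 and 0.76. That bin also holds other genes at 0 bp, such as Jun and Ier2, and whether it is the right one for Rgs1 was not tested. Fyco1, which overlaps Cxcr6, had uncentred log2 ratios of -0.93, -1.50 and -0.50 at 78.2 to 99.6 CPM in control, and Pelo, inside Itga1, had 0.02, -0.39 and 0.25.

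**Figure D2:**
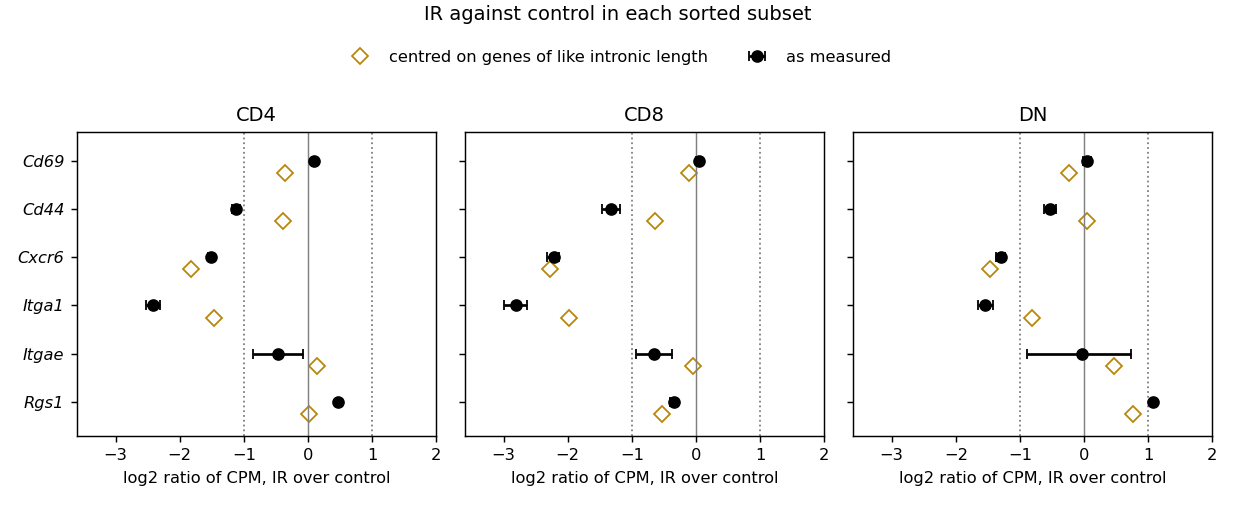
Log2 ratio of CPM of IR over control (x axis) for each gene (y axis) in CD4, CD8 and DN cells, as measured (black, with 95% counting intervals) and centred on the median of genes of like intronic length (open diamonds, no interval). Dotted lines mark 2-fold. Cxcr6 stays beyond 2-fold in all 3 subsets after centring, whereas Cd44 moves inside the lines.

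Each subset mixes cell states, so the 6 genes were also summed within classes set by a UMI of other genes, in a fixed order with the first match taken. In CD4 the classes were Foxp3 (regulatory T cells), Ccr7 (lymph node homing receptor of naive and central memory cells), Zbtb16 (the factor PLZF of innate-like T cells) and none of these. In CD8 they were Ccr7, Gzmk or Gzma (granzymes), Pdcd1 (PD-1) and none, and in DN Klrb1c (NK1.1), Pdcd1, Fcer1g (the Fc receptor gamma chain) and none. Median retained UMIs per cell ranged from 4062.5 in unclassed to 5929 in Ccr7 cells of control CD8 and from 914 to 1084.5 in the IR CD8 classes. A shallow cell can miss its class, and the class without a marker held 57.5%, 38.0% and 42.9% of cells in control (CD4, CD8, DN) against 68.8%, 49.1% and 70.2% in IR, while Klrb1c cells were 44.7% of control DN and 18.7% of IR DN. Cells with a Ccr7 UMI were 7.50%, 16.8% and 0.348% of control CD4, CD8 and DN and 19.95%, 37.2% and 0.565% of the IR libraries.

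Itgae divided the classes in an order of its own. In control CD8 it was at 75.1 CPM in Ccr7 cells, 22.0 in Pdcd1 cells, 21.1 in cells of no class and 10.7 in granzyme cells. In control CD4 it was at 64.5 CPM in Foxp3 cells, against 0.539 in Ccr7, 1.87 in Zbtb16 and 4.79 in cells of no class. Thus 138 of the 300 Itgae UMIs of control CD4 came from 341 Foxp3 cells. In IR the Foxp3 class was again high, at 43.3 CPM from 22 UMIs, and the CD8 Ccr7 class was at 25.2 CPM from 59 UMIs. The control DN classes lay between 2.86 and 5.75 CPM.

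Cxcr6 and Itga1 were low in the classes where Itgae was high, and also in the Ccr7 class of control CD4, where Itgae was lowest. In control CD8, Cxcr6 was at 188 CPM in Ccr7 cells against 916 in granzyme cells, and Itga1 at 59.2 against 358. In control CD4, Cxcr6 was at 111 CPM in Ccr7 and 172 in Foxp3 cells, against 1122 in Zbtb16 cells and 733 in cells of no class. Rgs1 was low in Ccr7 cells too, at 182 CPM in control CD4 and 183 in control CD8, where the other classes lay between 657 and 893. The DN classes were closer to each other, with Cxcr6 at 1124, 867, 968 and 1303 CPM in Klrb1c, Pdcd1, Fcer1g and unclassed control DN cells and Itga1 between 376 and 447 CPM. Cd69 did not separate Ccr7 cells in this way, at 643 CPM in the Ccr7 class of control CD8 and 572 in the granzyme class.

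Within the classes, Cxcr6 was lower in IR in 12 of 12, by at least 2-fold in each, with log2 ratios of IR over control from -2.36 to -1.01 (median -1.47). Itga1 was lower in 12 of 12 and at least 2-fold lower in 11, from -4.53 in Ccr7 CD8 cells, where IR had 6 UMIs, to -0.98. Cd44 was lower in 12 of 12 and at least 2-fold lower in 6. These class ratios were not centred on intronic length, and the share of all genes lower within a class was not taken. In the whole subsets (CD4, CD8, DN), genes of like intronic length had medians of -0.94, -0.83 and -0.73 for Itga1. Those for Cd44 were -0.73, -0.69 and -0.58. Rgs1 was higher in IR in 10 of 12 classes, and its values in CD8 differed from that of the whole subset. Granzyme CD8 cells had a log2 ratio of 0.27 (0.18 to 0.37), Pdcd1 CD8 cells 0.72 (0.41 to 1.02), Ccr7 CD8 cells -0.03 (-0.18 to 0.13) and cells of no class -0.19 (-0.26 to -0.12), against -0.35 for all CD8 cells. Cd69 was lower in 6 of 12 classes, with a median of 0.01.

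**Figure D3:**
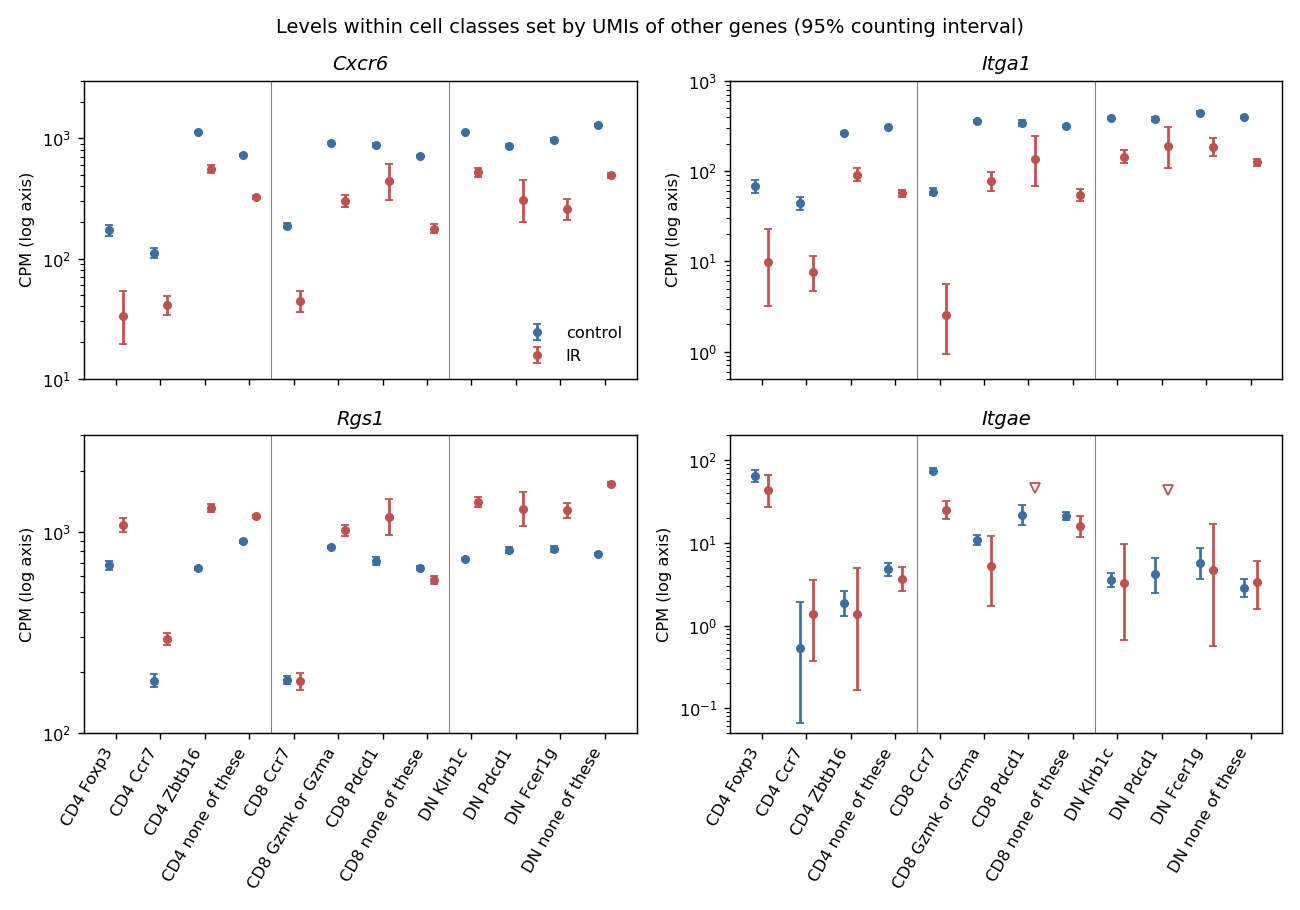
Levels of Cxcr6, Itga1, Rgs1 and Itgae in CPM (y axes, log scale) in classes of CD4, CD8 and DN cells set by a UMI of the named gene (x axis), in control (blue) and IR (red), with 95% Poisson intervals and triangles at the upper limit where 0 UMIs were found. Itgae is highest in the Foxp3 class of CD4 (64.5 CPM in control) and the Ccr7 class of CD8 (75.1 CPM in control), where Cxcr6 and Itga1 are low. Cxcr6 and Itga1 are also low in the Ccr7 class of CD4, where Itgae is at 0.539 CPM in control.

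Shares of cells were compared at an equal depth of 500 retained UMIs, which each analysed cell reached. Cxcr6 was found in 29.8%, 28.7% and 43.3% of control CD4, CD8 and DN cells (42.3 to 44.3 in DN) and in 11.1%, 5.84% and 20.03% of IR CD4, CD8 and DN cells (18.8 to 21.3 in DN). Itga1 was found in 11.9%, 11.4% and 17.4% of control cells and 2.17%, 2.01% and 6.75% of IR cells in the same order. Rgs1 was found in 25.4%, 23.7% and 26.0% of control cells and 28.8%, 15.8% and 42.4% of IR cells. The highest share of each of these 3 genes was in the library with its highest CPM, control DN for Cxcr6 and Itga1 and IR DN for Rgs1. Cd69 was found in 17.3% to 23.8% of cells in all 6 libraries, with overlapping intervals between conditions in each subset. Cd44 was found in 15.0%, 7.61% and 15.0% of control and 6.62%, 2.99% and 9.62% of IR cells, and Itgae in at most 1.29%. Without thinning the shares were much larger in the deeper control libraries, for Cxcr6 77.0%, 72.6% and 93.9% in control CD4, CD8 and DN against 24.7%, 11.2% and 33.6% in IR.

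Barcodes with more UMIs of other lineages than of T cell genes gave a comparison for RNA from outside the cell. There were 110 in control and 251 in IR libraries, with a median of 2547.5 and 1597 UMIs. At 500 UMIs, 13.6% of those in control had Cxcr6 (7.84 to 21.5), 5.45% Itga1 (2.03 to 11.5), 16.4% Cd69, 12.7% Cd44, 1.82% Itgae and 13.6% Rgs1. In IR, 2.39% had Cxcr6 (0.882 to 5.13), 2.39% Itga1 (0.882 to 5.13), 5.58% Cd69, 8.76% Cd44 (5.57 to 13.0) and 9.96% Rgs1, and 0 of 251 had Itgae, with an upper limit of 1.46%. The shares of Cd44 (control interval 7.14 to 20.4) and Itgae in each library lay within or below the interval of their condition. So did those of Itga1 in control CD8, IR CD4 and IR CD8. These shares are not told apart from those of the non-T barcodes, and no order is read from them. The orders of CPM given above for the same libraries carry this limit too. Shares of Cxcr6 and Rgs1 were above the interval of their condition in each library. Cd69 was above it in IR, whereas the control interval (10.00 to 24.6) holds all 3 control shares. Myeloid cells can carry several of these transcripts themselves, so the non-T barcodes do not measure RNA from outside the cell alone. Within 1 library, levels differed between classes, as for Itgae in the control CD4 classes given above. Cxcr6 in IR CD8 was at 44.0 CPM in Ccr7 cells and 440.3 in Pdcd1 cells (35 UMIs in 74 cells). The part of RNA from outside the cell in these values was not tested.

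At 500 UMIs, 65.7%, 64.5% and 75.4% of control CD4, CD8 and DN cells had a UMI of at least 1 of the 6 genes, and 50.7%, 41.7% and 67.8% of IR CD4, CD8 and DN cells. At least 3 of them were found in 6.52%, 5.78% and 8.69% of control cells and 2.22%, 1.01% and 4.32% of IR cells. DN was the highest subset in each condition by both measures. No cell had all 6 at this depth, and 14 of 6719 control CD8 cells did at 3000 UMIs.

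Co-detection, the number of cells with both genes of a pair over the number that independence would give, was taken for each pair in each library. With cells at 500 UMIs, Cxcr6 with Itga1 in control was at 1.24 (1.13 to 1.37) in CD4, 1.36 (1.23 to 1.50) in CD8 and 0.992 (0.918 to 1.07) in DN. In IR it was at 2.27 (1.71 to 2.95) in CD4, 2.68 (1.64 to 4.13, from 20 cells) in CD8 and 1.05 (0.799 to 1.36) in DN. For this pair the intervals of DN did not overlap those of CD4 and CD8 in either condition. Itga1 with Rgs1 was at 1.23 (1.11 to 1.37), 1.18 (1.05 to 1.32) and 1.10 (0.999 to 1.21) in control CD4, CD8 and DN, with overlapping intervals. In IR it was at 1.60 (1.31 to 1.95), 2.57 (1.92 to 3.38) and 1.21 (1.02 to 1.43), where CD8 was clear of DN and CD4 was not. Cells of a library share their sort and depth, so these are descriptions of 1 library each.

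The same ratios were taken without cells that had a Ccr7 UMI, a choice made after seeing the data. There, Cxcr6 with Itga1 was at 1.16 and 1.21 in control CD4 and CD8 and at 1.82 (1.36 to 2.38) and 1.89 (1.16 to 2.92) in IR CD4 and CD8, and at 0.991 and 1.04 in control and IR DN. The interval of control CD4 (1.05 to 1.28) then met that of DN (0.917 to 1.07), and that of IR CD8 met that of IR DN (0.787 to 1.35). Itga1 with Rgs1 was at 1.17, 1.05 and 1.09 in control and 1.38, 1.95 and 1.22 in IR, in the order CD4, CD8, DN. At 3000 UMIs, available in control only, Cxcr6 with Itga1 was at 1.20, 1.28 and 1.01 in CD4, CD8 and DN, Itga1 with Rgs1 was at 1.16, 1.24 and 1.04, and 86.9%, 89.5% and 90.2% of the cells with Itga1 also had Cxcr6. Cd69 stood between 0.926 and 1.16 in control at 500 UMIs for its pairs with Cd44, Cxcr6, Itga1 and Rgs1, and of these 12 values only that with Rgs1 in CD4 (1.06 to 1.27) had an interval clear of 1.

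Itgae was found in the same cells as Itga1, Cd44, Rgs1 and Cxcr6 less than independence would give in control CD8. At 3000 UMIs its cells overlapped with those of Itga1 at 0.477 (0.377 to 0.596) of the number under independence, with Cd44 at 0.493 (0.386 to 0.619), with Rgs1 at 0.607 (0.513 to 0.713) and with Cxcr6 at 0.644 (0.555 to 0.744). With Cd69 the ratio was 1.09 (0.965 to 1.22). At 500 UMIs the ratios with Itga1, Cd44, Rgs1 and Cxcr6 were 0.364 (0.118 to 0.849), 0.548 (0.178 to 1.28), 0.634 and 0.667, and the intervals of the last 2 begin at 0.376 and 0.423 and end at 1 when rounded. At that depth and without cells that had a Ccr7 UMI, the ratios of Itgae with Itga1, Cd44, Rgs1 and Cxcr6 were 0.572 (0.186 to 1.33), 0.720 (0.196 to 1.84), 0.962 (0.560 to 1.54) and 0.789 (0.460 to 1.26), each with an interval that holds 1. In control DN the ratio of Itgae with Itga1 was 1.11 (0.805 to 1.50, from 43 cells), and in control CD4 it was 0.697 (0.463 to 1.01, from 28 cells).

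**Figure D4:**
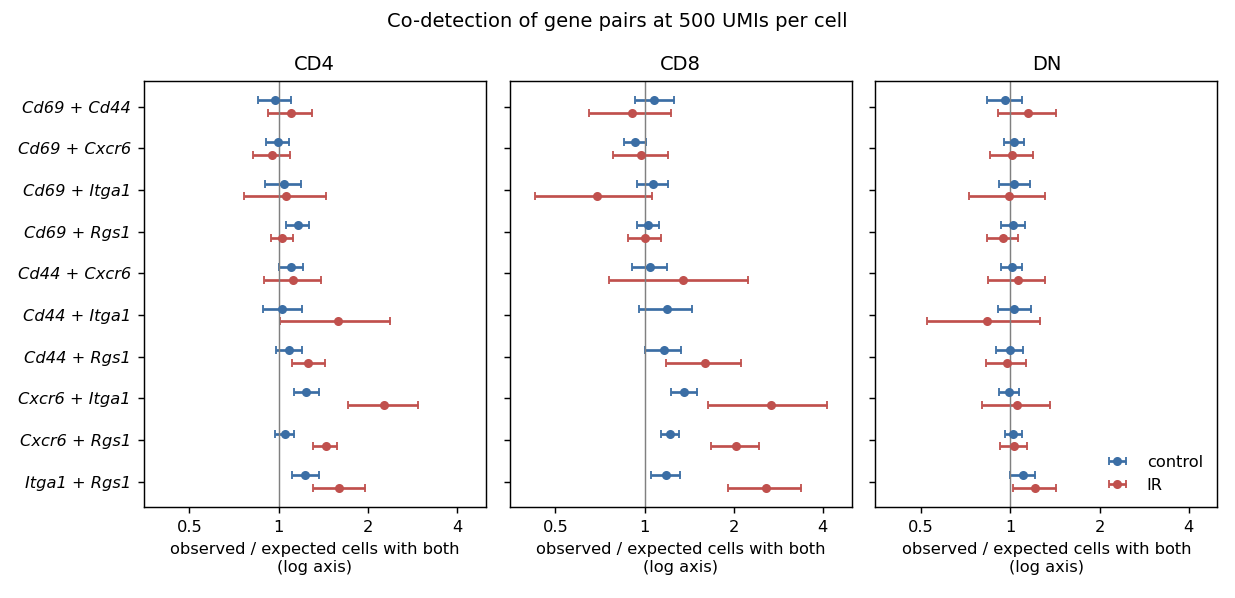
Cells with both genes of a pair over the number expected under independence (x axis, log scale) for 10 pairs of Cd69, Cd44, Cxcr6, Itga1 and Rgs1 (y axis), in control (blue) and IR (red) cells thinned to 500 UMIs, with 95% Poisson intervals. Pairs with under 5 expected cells are left out. Pairs among Cxcr6, Itga1 and Rgs1 lie at 1.44 to 2.68 in IR CD4 and CD8 and at 1.03 to 1.21 in IR DN.

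Egress genes were read in the same cells, because S1PR1 carries T cells out of tissue and the factor KLF2 drives its transcription. In control CD4, cells with 2 or more of the 6 genes had S1pr1 at 33.3 CPM against 92.1 in the remaining cells, and Klf2 at 261 against 535. In control CD8 the values were 61.7 against 119.6 CPM for S1pr1 and 422 against 847 for Klf2. IR CD4 cells gave 71.5 against 314 CPM for S1pr1 and IR CD8 cells 1892 against 4198 for Klf2. In control DN, Klf2 was at 265 CPM against 269 and S1pr1 at 29.0 against 37.2, within counting error, and in IR DN S1pr1 was at 35.2 against 35.4. Klf2 in IR DN was at 631 against 873 CPM, a log2 ratio of -0.47 (-0.65 to -0.29) that lies beyond counting error.

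The same split by single genes gave another picture. Cells with a Cd69 UMI had S1pr1 at 107 CPM in control CD8 against 105 in cells without, and at 72.2 against 76.8 in control CD4, within counting error in both. Klf2 in control CD8 was at 835 against 714 CPM (log2 ratio 0.23, 0.11 to 0.34). Its log2 ratio was 0.52 (0.32 to 0.71) in control DN and 0.48 (0.31 to 0.64) in IR DN. It was 0.25 (0.20 to 0.31) in IR CD8, 0.13 (0.06 to 0.19) in IR CD4 and -0.05 (-0.21 to 0.11) in control CD4. Cells with Itgae in control CD8 had more S1pr1, at 267 CPM against 103 (16 UMIs), and more Klf2, at 1533 against 732. Without thinning, S1pr1 was at 226 against 89.0 CPM in 724 cells with Itgae and 8570 without. A different gene of the egress list went the other way there, at 2.03 against 9.67 CPM.

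**Figure D5:**
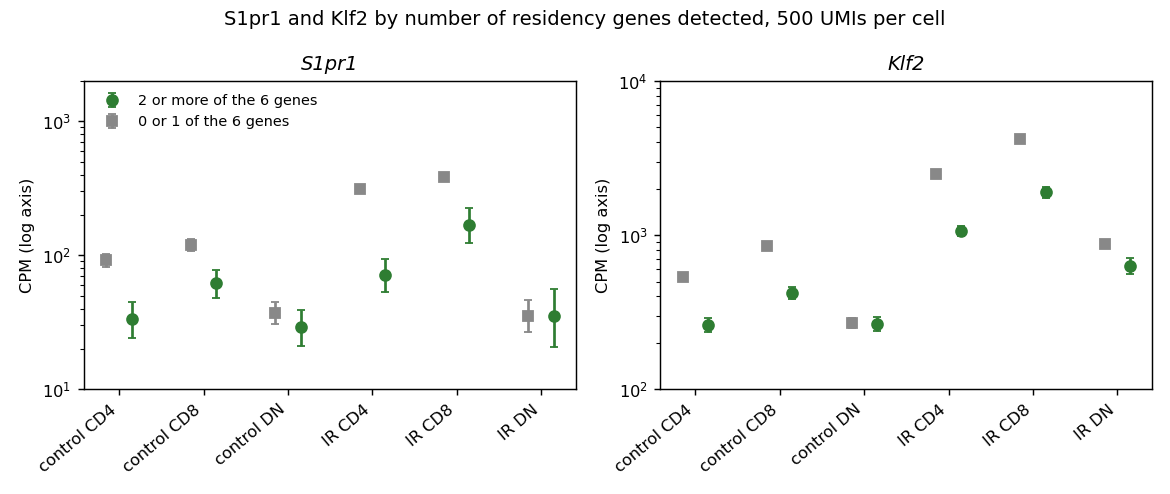
S1pr1 and Klf2 in CPM (y axes, log scale) in cells with 2 or more of the 6 genes (green circles) and with 0 or 1 (grey squares), by library (x axis), at 500 UMIs per cell with 95% Poisson intervals. Both transcripts are lower in the first group in CD4 and CD8, and Klf2 is lower in IR DN, whereas S1pr1 in both DN libraries and Klf2 in control DN lie within counting error.

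Partners and related genes were taken from lists. Itgb1, the partner of CD49a, was at 1039, 1106 and 939.6 CPM in control (CD4, CD8, DN) against 429, 332 and 339 CPM in IR, called lower in each subset at -1.28, -1.74 and -1.47 on the log2 scale. Centred on genes of like intronic length it stayed past 2-fold in CD8 only. Itgb7, the partner of CD103, was not called in any subset (-0.48, -0.69 and -0.90). Itga2, which encodes CD49b, another collagen-binding alpha chain, was called lower in IR in each, at -2.21 in CD4, -2.61 in CD8 and -1.39 in DN, the last within 2-fold after centring. Itga11, which also encodes a collagen-binding alpha chain, went the other way, from 0.715, 0.483 and 0.823 CPM in control to 6.21, 12.2 and 23.5 CPM in IR, and was called higher in CD8 and DN. Of 29 symbols beginning with Itga or Itgb, Itga1 and Itgae among them, 4 of 11 compared were called lower in CD4, 6 of 14 in CD8 and 3 of 12 in DN, and 0, 1 and 1 higher. Of all genes compared, 14.9%, 17.2% and 10.5% were called lower in CD4, CD8 and DN, and 7.81%, 8.25% and 8.85% higher. The median log2 ratios of these symbols, which include the binding protein Itgb3bp, were -0.69, -0.93 and -0.87, against -0.26, -0.37 and -0.25 for all genes. Many have long introns, and centred on genes of like intronic length their medians were -0.25, -0.50 and -0.46, with 2, 3 and 0 past 2-fold lower and 1, 2 and 1 higher.

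Of 13 egress or recirculation genes, 6 of 11 compared were called higher in IR CD4, 6 of 13 in IR CD8 and 3 of 10 in IR DN, with 0, 1 and 1 called lower and median log2 ratios of 1.69, 0.60 and 0.21, or 1.63, 1.11 and 0.54 after centring on intronic length. The shares of all genes called higher and lower, for this list and for the residency program genes below, are those given for the integrin symbols. After centring, 8, 8 and 3 were past 2-fold higher and 0, 1 and 0 lower. S1pr1 was at 65.7, 102 and 33.1 CPM in control (CD4, CD8, DN) against 276, 361 and 39.8 CPM in IR (CD4, CD8, DN), so it was called in CD4 and CD8 but not in DN. Klf2 was called in all 3, from 425, 741 and 278 CPM in control to 2076, 3649 and 808 CPM in IR. Of 22 other residency program genes, 4 were called higher and 6 lower of 22 compared in CD4, 1 and 9 of 20 in CD8, and 7 and 5 of 21 in DN, with medians of -0.09, -0.69 and 0.31, or 0.23, -0.17 and 0.48 after centring. Centring left 5 higher and 4 lower in CD4, 3 and 4 in CD8, and 7 and 2 in DN. Zfp683, which encodes the residency factor HOBIT, went from 49.8, 23.2 and 65.1 CPM in control CD4, CD8 and DN to 7.76, 1.54 and 13.3 CPM in IR. Bhlhe40 was called higher in CD4 and DN, with log2 ratios of 1.42 and 1.66, and was at 0.59 in CD8.

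Among 23 symbols of the RGS family, Rgs1 included, 7 or 8 reached 10 CPM in a comparison of IR with control. Rgs2, another regulator of G protein signalling, was at 234, 157 and 381 CPM in control CD4, CD8 and DN and had log2 ratios of IR over control of 0.73, 0.08 and 0.82, below 2-fold in each. Rgs3 was called lower in CD4 (-1.24) and CD8 (-1.42), and Rgs10 was called higher in both (1.14 and 1.21). Centred on genes of like intronic length, 0 symbols of the family were past 2-fold lower in CD4 or CD8, so both calls of Rgs3 were lost, and 1 was past 2-fold higher in each. The levels of 20 markers of other lineages summed to 159 to 248 CPM in control and 206 to 277 CPM in IR. Of these, 2 or 3 reached 10 CPM in a library, Cst3 and Pecam1 in each. The B cell gene Ms4a1 was the third, with 13.9 CPM in IR CD8 against 0.286 in control and 16.3 CPM in IR DN against 0.362. Lyz2, S100a8 and S100a9 were at most at 3.16 CPM. Hba-a1 and Hbb-bs of erythroid cells summed to 0.835 to 1.01 CPM in control and 18.4 to 25.5 CPM in IR. The part of either list in the values of the 6 genes was not tested.

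Genes of like pattern were sought among 5022 genes at 50 CPM or more in at least 1 library, by the root mean square difference of centred log2 levels over the 6 libraries. The nearest were Pa2g4 (0.05) and Sike1 (0.06) for Cd69, Grk5 (0.10) and Smad3 (0.13) for Cd44, and Ddx43 (0.12) and Sytl2 (0.15) for Cxcr6. For Itga1 they were Zfp512 (0.22) and Cd38 (0.22), for Itgae Plek (0.28) and Fgf13 (0.37), and for Rgs1 Dgat1 (0.10) and Vcpkmt (0.11).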

How the data were processed

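The deposited matrices hold raw UMI counts per gene and barcode with no normalization, which the authors produced from 10x Genomics 3' libraries by Cell Ranger (5.0.1 in the control headers, 6.0.1 in the IR headers and in the methods) on mm10. The methods state default settings and do not name the use of intronic reads or of strand. Barcodes with at least 500 features and at most 20% mitochondrial UMIs were kept, the top 5% of each library by UMIs was dropped, which is the doublet filter of the study, and no doublet caller was run. Barcodes with more UMIs of 20 other-lineage markers than of 6 T cell genes (361) were left out. Malat1 with the mitochondrial and ribosomal protein genes (104 features), and features in under 5 cells were removed. Counts were summed per library as CPM, with exact 95% Poisson intervals for sums, exact conditional intervals for ratios and Clopper-Pearson intervals for shares. PCR and sampling of mice are not covered. In ratios, 3 counts stood in for a count of 0.

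Cells were thinned without replacement to 500 retained UMIs, and control cells also to 3000, which left out 1631, 2575 and 532 cells in CD4, CD8 and DN. Gene models came from GENCODE M21 (GRCm38, the build of the files). Python 3 with scipy, and R with edgeR for TMM factors, were used, and the call rule was tested on simulated data. Groups came from sample titles. The genes, lists, filters and alternatives were chosen with earlier results of these data known. The named genes were the 6, class genes, listed genes at 10 CPM or more past 2-fold, and the 2 nearest in pattern for each. Itgb7, Rgs2, Rgs3, Rgs10, Itga2, Itga11, and the overlapping, class and marker genes were named outside that rule as partners or checks.

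Alternatives were TMM scaling, removed features kept, a mean over cells, cells thinned, non-T barcodes kept, no filter on cells, a limit of 10% on mitochondrial UMIs, the deepest 5% of barcodes kept, no minimum or a minimum of 50 CPM, shared barcodes left out, and centring on intronic length. For shares they were 300 UMIs, 1000 UMIs of all features and no thinning. Leaving out cells with a Ccr7 UMI was chosen after seeing the data. With 1 library per group, no replicate could be left out. 1 gene of the egress list and 1 of the other-lineage markers are not reported here by name.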

Additional observations from a re-analysis of the deposited data

Results flagged for a closer look

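Rgs1 had ratios of IR over control of opposite sign in the sorted subsets. Its log2 ratio was 0.47 in CD4 and -0.35 in CD8, a difference of 0.82. The difference of CD8 from DN, at 1.08, was -1.43. In CD8 the median log2 ratio of all genes compared was -0.37, and 51.1% of them had a lower ratio than Rgs1. The CD8 classes ranged from -0.19 in cells of no class to 0.72 in Pdcd1 cells, all above the value of the whole subset. Centred on genes of like intronic length, the subset values of Rgs1 were 0.01, -0.53 and 0.76 in CD4, CD8 and DN, so that CD4 was near 0. Without cells that had a Ccr7 UMI the values were 0.61, -0.14 and 1.09 in CD4, CD8 and DN. With 1 library per condition in each subset, these differences were not tested.

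The order of the subsets turned between conditions for a pair of genes. Cd44 had a log2 ratio of DN over CD4 of 0.48 in IR and -0.11 in control, a difference of 0.59. Itga1 had a log2 ratio of CD8 over CD4 of -0.29 in IR and 0.11 in control, a difference of -0.40. The opposite signs of the 2 ratios were not kept without Ccr7 cells, where that of IR was 0.05, or with cells thinned to 500 UMIs, where that of control was -0.07. Neither was tested. In IR the non-T barcodes held Itga1 at 52.8 CPM and Cd44 at 179 CPM, so the levels of Itga1 in IR CD4 (49.4 CPM) and CD8 (40.3 CPM) and of Cd44 in IR CD4 (160.1 CPM) were below theirs.

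Among the barcodes left out as non-T, Rgs1 was at 651 CPM in IR and 489 CPM in control, a log2 ratio of 0.41 (0.12 to 0.70). In the same barcodes Cxcr6 had a log2 ratio of -2.44 (-3.18 to -1.77) and Itga1 of -1.87 (-2.70 to -1.11), from 21 and 18 UMIs in IR. Cd69 was at -1.29 (-1.77 to -0.84) there and Cd44 at -0.41 (-0.91 to 0.07).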

How the results depend on the processing

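Over 558 recomputed log2 ratios of the 6 genes, 542 were called or not called as before, 12 were no longer called, 4 were newly called, and no call was reversed. Of the 54 ratios, 13 turned sign under some alternative, none of them called. A minimum of 50 CPM left 1 of the 3 calls between control subsets, since Itgae is below that level. Centring on intronic length left 5 of the 9 calls of IR against control: Cxcr6 in all 3 subsets and Itga1 in CD4 and CD8. Every other alternative gave counts within 1.5 times the main ones: 2 to 4 for control subsets, 7 to 9 for IR subsets and 8 or 9 for IR against control. The removed features kept lost both Itgae calls between IR subsets, because it brought Itgae under 10 CPM, and shifted the median log2 ratio of all genes by -0.42 in IR CD8 over control CD8. TMM scaling shifted it by -0.16 in IR DN over IR CD8. Shares of cells depend on the thinning depth and were compared at 1 depth only. No paired analysis was possible because each group had 1 library with no replicate number, and the sorted subsets are cell types, not replicates of a condition. Depth limits Itgae most, with 15 UMIs in IR DN.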
